A study of Homo sapiens with 12 samples.

Results

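The genes described here are 10 markers of astrocytes, the star-shaped glial cells of the brain: GFAP, AQP4, SLC1A2, SLC1A3, ALDH1L1, BCAN, MT3, CST3, CPE and S100B. They were followed in human tumour cells, sorted where they had been kept with astrocytes. The arrays measured 17958 genes with a probe set of their own. A gene's probe set was selected on its gene symbol and, where several existed, on the highest mean signal over the 12 arrays. Each of the 10 genes had 1 probe set, so signal decided none of them, but the genes themselves were chosen with earlier results of these arrays known.

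The cells were 231BR, a variant of the human breast cancer line MDA-MB-231 that seeds the brain, and they carried EGFP. Arrays were made in 4 groups of 3: 10 nM estradiol with mouse astrocytes, vehicle with mouse astrocytes, 10 nM estradiol alone and vehicle alone. Cells kept with astrocytes were sorted for EGFP after 24 h, and RNA was taken from the sorted cells. If cells kept alone were not sorted, the sort and the astrocytes cannot be told apart in any comparison with cells alone. The labels state neither the purity of the sort nor whether replicates were separate cultures, so p-values measure a spread between arrays that may be technical.

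Astrocytes are recognised by a shared set of genes. GFAP is their intermediate filament protein, AQP4 the water channel of their end-feet, and SLC1A2 and SLC1A3 the transporters that clear glutamate from synapses. ALDH1L1 is a folate enzyme, BCAN a proteoglycan of brain matrix, MT3 the brain form of metallothionein and S100B a calcium-binding protein, while CST3 (cystatin C, an inhibitor of cysteine proteases) and CPE (carboxypeptidase E, which trims peptide hormones) are secretory-pathway genes that many cell types express. The probe sets are designed for human RNA. RNA of mouse astrocytes in the sorted fraction and expression by the human cells cannot be told apart here, because every co-culture array could hold both. Nor can fewer cells of a type and less RNA per cell be told apart in such bulk RNA.

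The arrays differed in their range of signal. The SD of all log2 signals on an array was 2.10, 1.62 and 1.96 in estradiol with astrocytes and 2.04, 1.82 and 1.95 in vehicle with astrocytes, replicates 1 to 3. It was 2.20, 2.12 and 2.18 in estradiol alone and 2.22, 2.18 and 2.04 in vehicle alone. Replicate 2 of both astrocyte groups therefore stood apart with the narrowest range, and the counts of called genes over both treatments are also given without these arrays. Genes typical of MDA-MB-231 had a mean log2 signal per array of 7.41 to 8.92 in estradiol with astrocytes, 8.29 to 8.86 in vehicle with astrocytes, 8.82 to 8.98 in estradiol alone and 8.69 to 9.01 in vehicle alone (17 of 18 listed genes measured).

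With astrocytes, 7 of the 10 markers rose and 2 fell when both astrocyte groups were set against both groups alone (6 arrays each). BCAN was 2.10-fold, MT3 1.98-fold and GFAP 1.93-fold higher, CST3 1.59-fold, S100B 1.58-fold, ALDH1L1 1.51-fold and SLC1A2 1.38-fold, while SLC1A3 was 1.93-fold and CPE 1.78-fold lower. AQP4 was not called. A gene is called where its adjusted p in limma, over all genes, was under 0.05. In this comparison 47.5% of all genes were called, 24.5% higher and 23.0% lower. Without replicate 2 of both astrocyte groups, 5 markers rose and 2 fell, beside 23.2% of all genes higher and 21.6% lower.

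**Figure D1:**
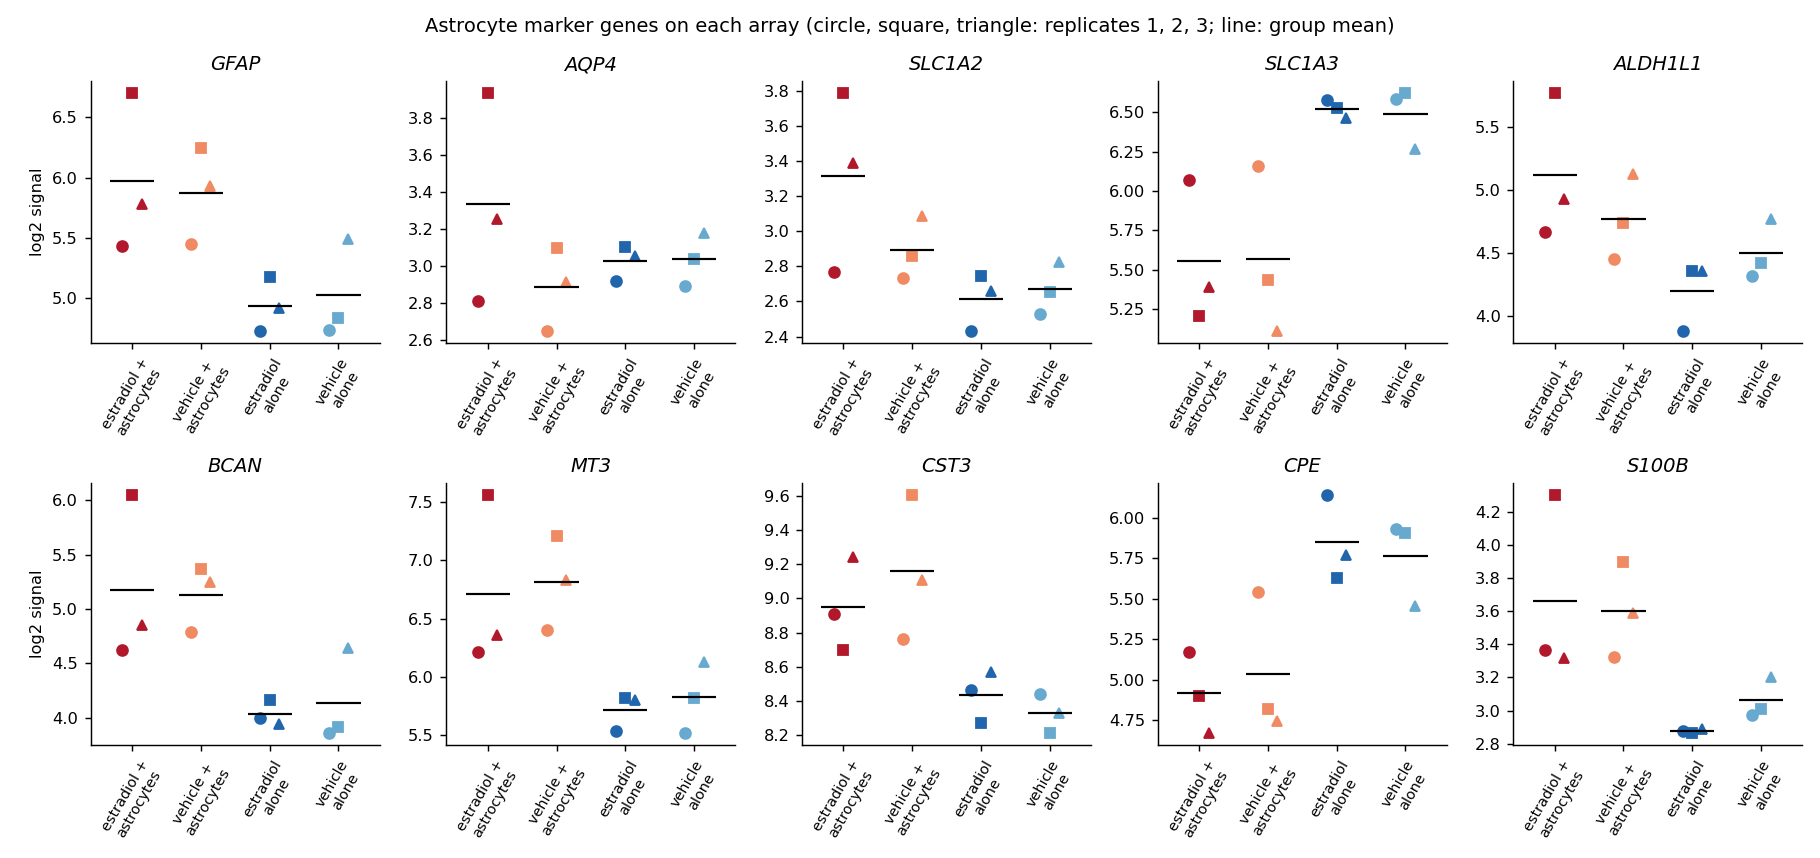
Log2 signal of each of the 10 astrocyte marker genes on each of the 12 arrays, by group; circles, squares and triangles are replicates 1, 2 and 3 and lines are group means. Replicate 2 of estradiol with astrocytes is the highest array for 7 of the genes, and SLC1A3 and CPE run the other way.

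GFAP (probe set 8016128) gave log2 signals of 5.43, 6.70 and 5.78 in estradiol with astrocytes and 5.45, 6.25 and 5.93 in vehicle with astrocytes, against 4.72, 5.17 and 4.91 in estradiol alone and 4.74, 4.83 and 5.49 in vehicle alone. Arrays with astrocytes were higher in each treatment except that vehicle alone replicate 3 reached the level of the lowest co-culture arrays. The difference was 0.95 (SE 0.24) over both treatments, with an adjusted p in limma of 0.0125. S100B (probe set 8071036) gave 3.37, 4.31 and 3.32 in estradiol with astrocytes and 3.32, 3.90 and 3.59 in vehicle with astrocytes, against 2.88, 2.86 and 2.89 in estradiol alone and 2.97, 3.01 and 3.20 in vehicle alone. All 6 co-culture arrays lay above all 6 others, and the difference was 0.66 (SE 0.19, adjusted p = 0.0173).

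The glutamate transporters moved in opposite directions. SLC1A3 (GLAST, probe set 8104930) gave 6.07, 5.21 and 5.39 in estradiol with astrocytes and 6.16, 5.44 and 5.11 in vehicle with astrocytes, against 6.58, 6.52 and 6.46 in estradiol alone and 6.58, 6.62 and 6.27 in vehicle alone. All 6 co-culture arrays lay below all 6 others, and SLC1A3 fell by 0.94 on the log2 scale (SE 0.21, adjusted p = 0.00735). SLC1A2 (GLT-1, probe set 7947496), a gene at the low end of the array's signal, gave 2.77, 3.79 and 3.39 in estradiol with astrocytes and 2.73, 2.86 and 3.09 in vehicle with astrocytes. It gave 2.43, 2.75 and 2.66 in estradiol alone and 2.53, 2.65 and 2.83 in vehicle alone, so the groups overlapped under vehicle. Its difference of 0.46 (SE 0.18) had an adjusted p of 0.0489, and leaving out any of 10 of the 12 arrays ended the call; the exceptions were replicate 1 of each astrocyte group.

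AQP4 (probe set 8022655) did not separate the groups. Its signals were 2.81, 3.93 and 3.25 in estradiol with astrocytes and 2.65, 3.10 and 2.91 in vehicle with astrocytes, against 2.92, 3.10 and 3.05 in estradiol alone and 2.89, 3.04 and 3.18 in vehicle alone. Replicates 2 (3.93) and 3 (3.25) of estradiol with astrocytes stood above the other arrays, of which the highest was 3.18. Without replicate 2 the difference of 0.08 (SE 0.19, adjusted p = 0.722) became −0.07. The signal lay in the lowest 10% of genes by mean signal.

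ALDH1L1 (probe set 8090314) gave 4.66, 5.77 and 4.93 in estradiol with astrocytes and 4.45, 4.74 and 5.12 in vehicle with astrocytes, against 3.88, 4.35 and 4.36 in estradiol alone and 4.31, 4.42 and 4.77 in vehicle alone. The groups were apart under estradiol and overlapped under vehicle. The difference was 0.60 (SE 0.21, adjusted p = 0.0386), and leaving out 1 of 7 arrays ended the call (replicate 2 or 3 of vehicle with astrocytes, any replicate of estradiol alone, replicate 1 or 2 of vehicle alone), with an adjusted p of up to 0.0964. CPE (probe set 8098204) gave 5.17, 4.90 and 4.67 in estradiol with astrocytes and 5.54, 4.82 and 4.75 in vehicle with astrocytes, against 6.14, 5.63 and 5.77 in estradiol alone and 5.93, 5.91 and 5.45 in vehicle alone. Replicate 1 of vehicle with astrocytes was above the lowest vehicle array without them. CPE fell by 0.83 (SE 0.19, adjusted p = 0.00811).

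BCAN, MT3 and CST3 were higher with astrocytes on nearly all arrays. BCAN (probe set 7906205) gave 4.62, 6.05 and 4.85 in estradiol with astrocytes and 4.79, 5.37 and 5.25 in vehicle with astrocytes, against 3.99, 4.17 and 3.95 in estradiol alone and 3.86, 3.92 and 4.64 in vehicle alone. Its difference was 1.07 (SE 0.25, adjusted p = 0.00933), the largest of the 10, and vehicle alone replicate 3 alone overlapped the co-culture arrays. MT3 (probe set 7995776) gave 6.22, 7.56 and 6.36 in estradiol with astrocytes and 6.40, 7.21 and 6.83 in vehicle with astrocytes, against 5.54, 5.82 and 5.80 in estradiol alone and 5.52, 5.82 and 6.13 in vehicle alone. No array of one kind overlapped the other, and the difference was 0.99 (SE 0.24, adjusted p = 0.0111).

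CST3 (probe set 8065403) gave 8.91, 8.70 and 9.24 in estradiol with astrocytes and 8.76, 9.61 and 9.11 in vehicle with astrocytes, against 8.47, 8.27 and 8.57 in estradiol alone and 8.44, 8.21 and 8.33 in vehicle alone. All 6 co-culture arrays lay above the other 6, with a difference of 0.67 (SE 0.17, adjusted p = 0.0118). It lay among the top 10% of genes by mean signal. Replicate 2 of estradiol with astrocytes, the highest array for GFAP, S100B, BCAN and MT3, was the lowest co-culture array for CST3.

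Windows around the annotated start (250 bases before to 50 after, RefSeq, GRCh38.p14) were given for 6 of the 10 genes and counted for CG dinucleotides, the target of DNA methylation. The 2 shown are a gene that rose and a gene that fell, with CG in capitals. CST3 (chr20:23637906-23638205, minus strand) held 21, a count reached by 39.5% of all 35116 windows, and SLC1A3 (chr5:36596338-36596637, plus strand) held 1, a count reached by 96.0%.
CST3: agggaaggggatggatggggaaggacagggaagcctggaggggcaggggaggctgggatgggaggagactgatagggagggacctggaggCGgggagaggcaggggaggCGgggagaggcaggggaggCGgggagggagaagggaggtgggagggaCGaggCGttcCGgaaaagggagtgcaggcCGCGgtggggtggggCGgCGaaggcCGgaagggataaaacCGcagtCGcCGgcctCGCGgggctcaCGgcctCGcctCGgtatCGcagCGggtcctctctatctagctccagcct
SLC1A3: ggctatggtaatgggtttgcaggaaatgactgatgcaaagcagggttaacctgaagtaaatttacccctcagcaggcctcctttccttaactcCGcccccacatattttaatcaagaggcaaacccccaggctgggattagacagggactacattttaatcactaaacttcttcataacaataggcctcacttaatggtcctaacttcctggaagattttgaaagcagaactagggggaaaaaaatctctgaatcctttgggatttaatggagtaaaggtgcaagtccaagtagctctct
BCAN held 31, CPE 24, ALDH1L1 21 and AQP4 2, so CG-rich windows occurred in genes that rose and in CPE, which fell. Where a gene had several windows, the first listed was counted.

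Under estradiol, SLC1A3 (−0.97, SE 0.29, adjusted p = 0.0494) and CPE (−0.93, SE 0.26, adjusted p = 0.0439) were called lower with astrocytes than alone and no marker was called higher, beside 13.2% of all genes called (5.03% higher and 8.15% lower). Both calls ended when any of 10 arrays was left out, with an adjusted p of up to 0.167 for SLC1A3 and 0.169 for CPE, and held only without replicate 1 of either astrocyte group. Without replicate 1 of estradiol with astrocytes, 8 markers and 51.4% of all genes were called. The uncalled differences were 1.14 for BCAN, 1.04 for GFAP, 0.99 for MT3, 0.93 for ALDH1L1, 0.79 for S100B, 0.70 for SLC1A2, 0.51 for CST3 and 0.31 for AQP4, and all but those of CST3 and AQP4 had an adjusted p between 0.05 and 0.07. Arrays of the 2 groups did not overlap for 9 of the 10 markers, AQP4 being the exception, and for 50.9% of all genes.

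Under vehicle no marker was called, beside 0.0557% of all genes. By unadjusted p, 5073 of the 17958 genes were under 0.05. Differences were 1.00 for BCAN, 0.99 for MT3, 0.85 for GFAP, 0.83 for CST3, 0.54 for S100B, 0.27 for ALDH1L1, 0.22 for SLC1A2, −0.15 for AQP4, −0.73 for CPE and −0.92 for SLC1A3, with adjusted p from 0.0932 for CST3 to 0.689 for AQP4. Without replicate 2 of estradiol with astrocytes, which belongs to neither group but adds to the shared spread, 7 markers and 34.0% of all genes were called. Without replicate 1 of vehicle with astrocytes SLC1A3, CST3 and CPE were called, beside 9.08% of all genes. Arrays of the 2 groups did not overlap for 5 of the markers (SLC1A3, BCAN, MT3, CST3 and S100B) and for 41.8% of all genes. Over both treatments this held for 4 markers (SLC1A3, MT3, CST3 and S100B) and for 23.6% of all genes. The 2 comparisons share one estimate of spread, and the one over both treatments is their mean, so they are not independent.

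**Figure D2:**
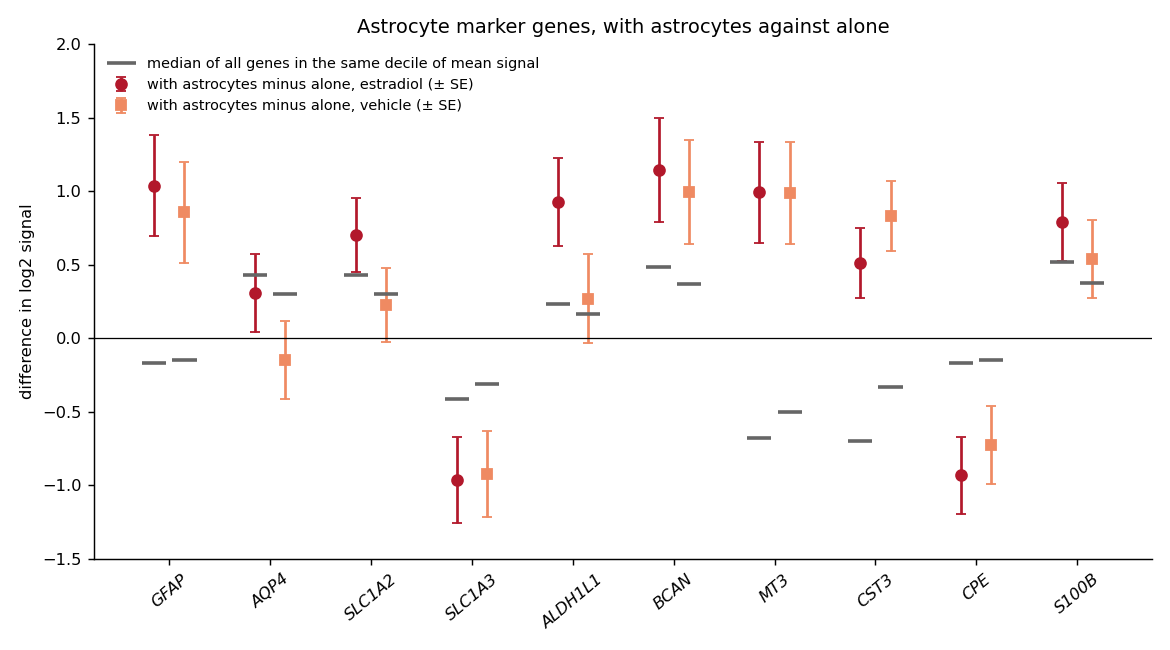
Difference in log2 signal with astrocytes minus alone for each marker gene under estradiol and under vehicle (± SE, 3 arrays a group); grey bars are the median difference of all genes in the same decile of mean signal. GFAP, MT3 and CST3 lie above grey bars that are below 0 in both treatments.

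Differences over all genes followed the level of signal. Genes were divided into deciles by mean log2 signal over the 12 arrays. The median difference over both treatments was 0.37 in decile 1, the dimmest, and 0.46 in decile 3, but −0.15 in decile 6, −0.61 in decile 8 and −0.52 in decile 10. Called genes were 40.8% higher and 6.01% lower in decile 3, against 4.62% higher and 25.6% lower in decile 10.

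Set against genes of like signal, the markers fell into separate kinds. SLC1A2 (decile 1, median 0.37) and ALDH1L1 (decile 5, median 0.21) lay inside the interquartile range of their decile, and AQP4 lay below that of decile 1 (0.22 to 0.54). S100B was just above the range of decile 2 (0.23 to 0.63), SLC1A3 lay at the lower edge of that of decile 7 (−0.94 to 0.12), and CPE was just below that of decile 6 (−0.78 to 0.45). BCAN exceeded the median of decile 4 by 0.64. GFAP exceeded that of decile 6 by 1.10, CST3 that of decile 10 by 1.19 and MT3 that of decile 8 by 1.60. This placing describes the genes and carries no test.

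**Figure D3:**
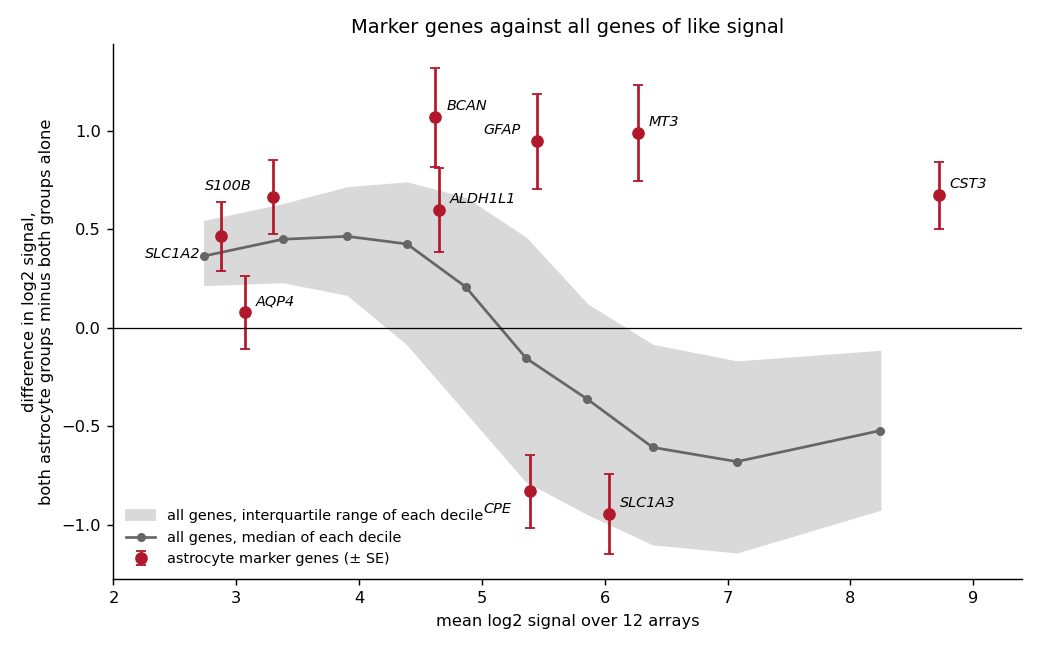
Difference in log2 signal, both astrocyte groups minus both groups alone, against mean log2 signal over 12 arrays for the marker genes (points ± SE) and for all genes (line, median of each decile; band, its interquartile range). SLC1A2, S100B and ALDH1L1 lie inside or at the edge of the band, while GFAP, MT3 and CST3 lie above a band that slopes downward.

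Within groups, some markers ran in the order of array SD and others did not. GFAP, AQP4 and MT3 were highest on the array of smallest SD and lowest on that of largest SD in 4 of 4 groups. BCAN and SLC1A2 did so in 3 groups, ALDH1L1 and S100B in 2, CST3 in 1 and SLC1A3 and CPE in 0. This order was noted after the values were seen and carries no test.

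The arrays closest in SD within a treatment, also chosen after the values were seen, were replicate 1 with astrocytes (SD 2.10) and replicate 2 alone (2.12) under estradiol, and replicate 1 with astrocytes (2.04) and replicate 3 alone (2.04) under vehicle. GFAP gave 5.43 with astrocytes and 5.17 alone under estradiol, and 5.45 with astrocytes and 5.49 alone under vehicle. BCAN gave 4.62 with astrocytes and 4.17 alone under estradiol, and 4.79 with astrocytes and 4.64 alone under vehicle. MT3 gave 6.22 with astrocytes and 5.82 alone under estradiol, and 6.40 with astrocytes and 6.13 alone under vehicle. CST3 gave 8.91 with astrocytes and 8.27 alone under estradiol, and 8.76 with astrocytes and 8.33 alone under vehicle. S100B gave 3.37 with astrocytes and 2.86 alone under estradiol, and 3.32 with astrocytes and 3.20 alone under vehicle. SLC1A3 gave 6.07 with astrocytes and 6.52 alone under estradiol, and 6.16 with astrocytes and 6.27 alone under vehicle. BCAN, MT3, CST3 and S100B were thus higher with astrocytes in both pairs, and SLC1A3 and AQP4 were lower in both. GFAP, SLC1A2 and ALDH1L1 were higher in the estradiol pair and lower in the vehicle pair, and CPE the reverse. Each value rests on 1 array.

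**Figure D4:**
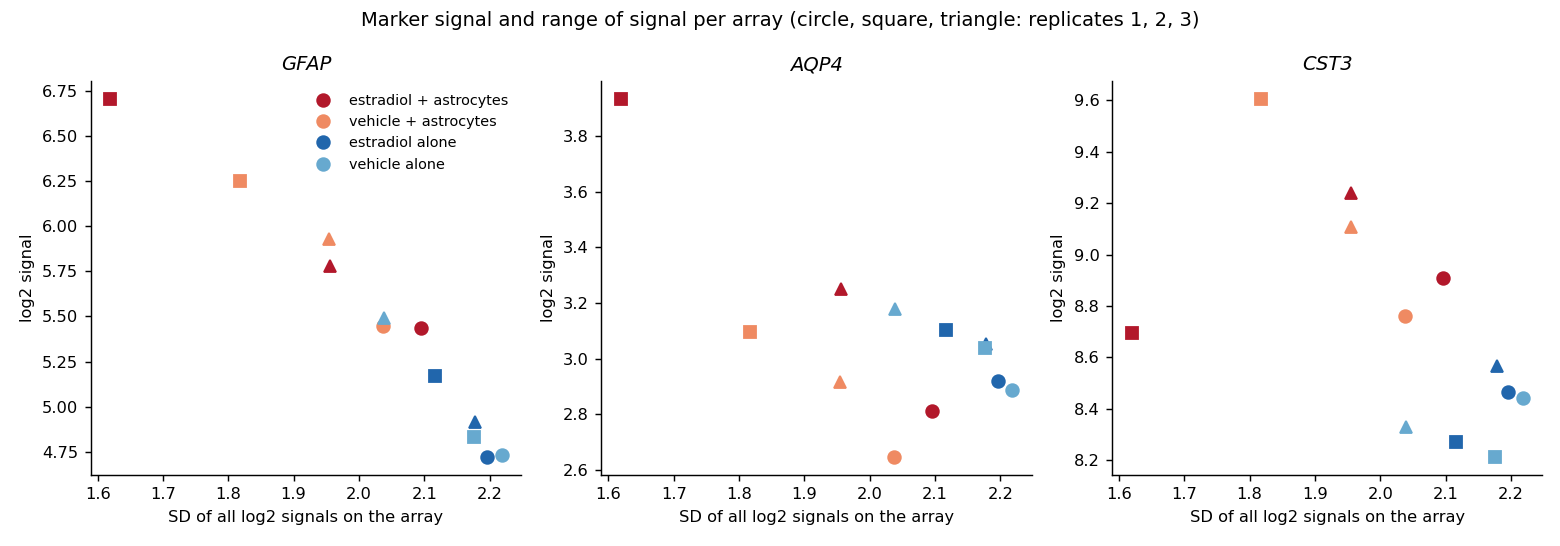
Log2 signal of GFAP, AQP4 and CST3 against the SD of all log2 signals on the array, for the 12 arrays coloured by group; circles, squares and triangles are replicates 1, 2 and 3. GFAP is higher on arrays of smaller SD within each group and across them. The co-culture arrays for CST3 lie above the others, but only replicate 1 of each astrocyte group has an SD close to that of an alone array.

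With array SD added to the fit as covariate, CST3 kept its difference of 0.67 over both treatments (adjusted p in limma of 0.0452), and AQP4 was called lower, at −0.44 (adjusted p = 0.0320). The other 8 were not called, with 0.21 for GFAP, 0.31 for BCAN, 0.25 for MT3, 0.17 for S100B, 0.07 for ALDH1L1, 0.05 for SLC1A2, −0.52 for SLC1A3 and −0.57 for CPE. In that fit 14.4% of all genes were called. With quantile normalization GFAP, BCAN, MT3 and CST3 were called higher, at 1.25, 1.11, 1.48 and 1.05, and SLC1A3 and CPE lower, at −0.61 and −0.70, beside 32.3% of all genes. CST3 was called over both treatments in all 23 settings, the single arrays left out in turn included. The SD was confounded in part with the presence of astrocytes, and its part in the differences was not tested.

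**Figure D5:**
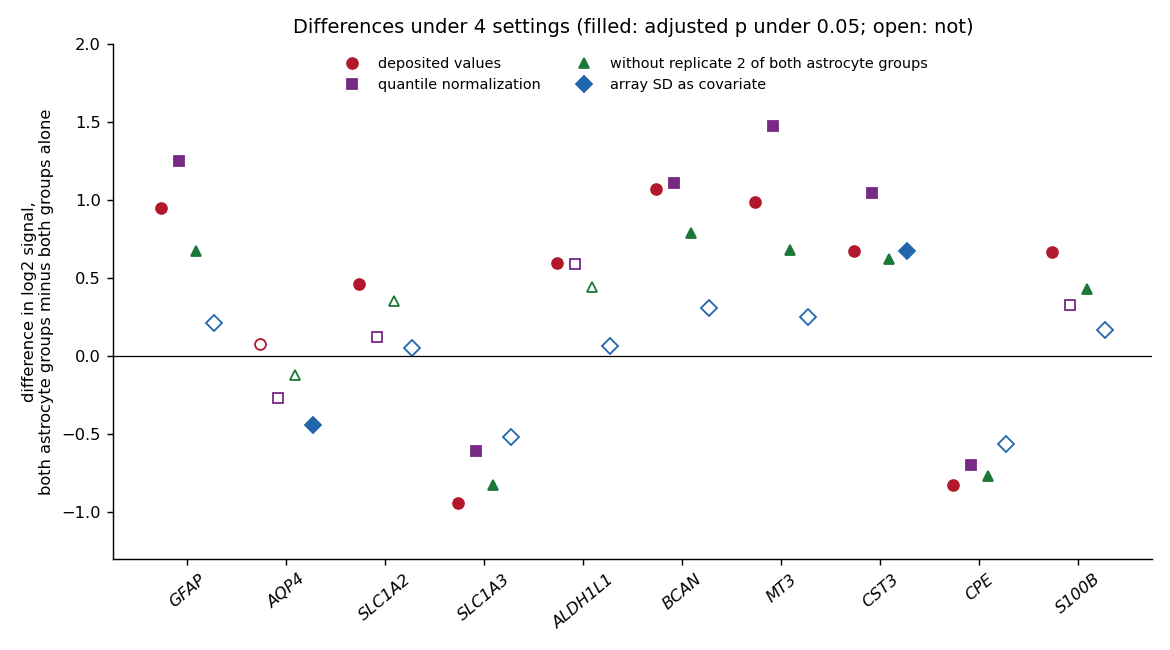
Difference in log2 signal over both treatments, both astrocyte groups minus both groups alone, for each marker under 4 settings; filled symbols had an adjusted p under 0.05 and open symbols did not. CST3 is filled in all 4 settings, and GFAP, BCAN and MT3 are filled in all except the array SD as a covariate.

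Estradiol against vehicle moved no marker past the threshold, and the same held for all genes. With astrocytes the 10 differences ran from −0.21 for CST3 (SE 0.24) to 0.45 for AQP4 (SE 0.26), and 0 of 17958 genes (0%) were called. Without replicate 2 of estradiol with astrocytes AQP4 was at 0.15, and the differences ran from −0.53 for MT3 to 0.19 for SLC1A2, with no marker called. Without astrocytes the differences ran from −0.31 for ALDH1L1 (SE 0.30) to 0.11 for CST3 (SE 0.24), and 0% of genes were called. Arrays of the 2 groups without astrocytes did not overlap for 1 of the 10 markers, S100B (−0.19, SE 0.26), and for 3.21% of all genes. With astrocytes they did not overlap for 0 of the 10 and for 2.18% of all genes. The interaction, the difference between the effects of astrocytes under estradiol and under vehicle, ran from −0.32 for CST3 (SE 0.34) to 0.66 for ALDH1L1 (SE 0.42), with 0% of genes called, and ALDH1L1 was at 0.33 without replicate 2 of estradiol with astrocytes. By unadjusted p, 142 genes were under 0.05 for estradiol with astrocytes, 1 without and 31 for the interaction. Array weights called 1197, 8 and 648 genes in these comparisons, none of them a marker.

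Of 31 further astrocyte genes measured from a list of 35, 13 rose, 3 fell and 15 did not pass over both treatments, with a median difference of 0.39 beside 0.07 for all genes. Of the 31, 17 lay in deciles 1 to 4 of signal, where 34.0% to 40.8% of all genes were called higher. NDRG2, a stress-responsive gene, was at 0.93, the sodium pump subunit gene ATP1B2 at 1.13, the mitochondrial glutamate carrier gene SLC25A18 at 0.68 and TTYH1, which encodes a membrane protein, at 1.17, all called. These were the genes of smallest p in the list, and the 3 that fell are not named. Under estradiol 3 rose (NDRG2, SLC25A18 and TTYH1) and none fell, beside 5.03% of all genes higher and 8.15% lower. Without replicate 2 of both astrocyte groups 13 rose and 2 fell over both treatments, beside 23.2% of all genes higher and 21.6% lower. With the array SD as covariate 4 rose and 1 fell, beside 8.57% and 5.82% of all genes. The mean log2 signal of the list per array was 4.78 to 5.13 in estradiol with astrocytes, 4.75 to 4.91 in vehicle with astrocytes, 4.41 to 4.57 in estradiol alone and 4.42 to 4.70 in vehicle alone.

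Genes of reactive astrocytes went both ways, as did all genes. Of 24 measured from 25, 6 rose and 8 fell, with a median of 0.07 beside 0.07 for all genes. Of all genes 24.5% rose and 23.0% fell. In deciles 7 to 10 of signal, where 25.6% to 45.9% of all genes were called lower, lay 13 of the 24. In deciles 1 to 4 lay 10. The 4 with the smallest p all fell: the oncostatin M receptor gene OSMR (−2.63), the pentraxin gene PTX3 (−1.77), the adhesion gene AMIGO2 (−1.60) and EMP1, a membrane protein gene (−1.52). VIM and CD44 of this list are also on the list of MDA-MB-231 genes. Without replicate 2 of both astrocyte groups 7 rose and 8 fell, beside 23.2% of all genes higher and 21.6% lower. With the array SD as covariate 1 rose and 2 fell, beside 8.57% of all genes higher and 5.82% lower.

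Markers of other cell types mostly had low signal. In deciles 1 to 4 lay 14 of 16 microglia and macrophage markers, 15 of 16 neuron, 9 of 15 oligodendrocyte lineage, 9 of 11 fibroblast and meningeal, and 11 of 15 endothelial and mural markers, so their counts stand beside the 34.0% to 40.8% of all genes called higher in those deciles. Of microglia and macrophage markers 9 rose and 0 fell of 16 measured (median 0.56), among them the transcription factor gene SPI1 (1.28), the endotoxin co-receptor gene CD14 (0.95), AIF1 (0.96) and the purinergic receptor gene P2RY12 (0.84). Of neuron markers 7 rose and 1 fell of 16 (median 0.49), with STMN2 at 0.89, the GABA-synthesising enzyme gene GAD2 at 0.93 and the RNA-binding protein gene ELAVL4 at 0.92. Of oligodendrocyte lineage markers 6 rose and 1 fell of 15 (median 0.46), with the lineage transcription factor genes OLIG1 at 0.98 and SOX10 at 0.71, the myelin gene MAG at 0.87 and the myelin lipid enzyme gene UGT8 at −0.82. Of fibroblast and meningeal markers 4 rose and 0 fell of 11 (median 0.48), and of endothelial and mural markers 1 rose and 1 fell of 15 (median 0.17). The higher and lower counts without replicate 2 of both astrocyte groups were 8 and 0 for microglia and macrophages, 7 and 1 for neurons, 5 and 1 for oligodendrocytes, 3 and 0 for fibroblasts and 1 and 1 for endothelial and mural cells. Of all genes, 23.2% were higher and 21.6% lower there. The per-array mean of the microglia and macrophage list was 3.88 to 4.96 in estradiol with astrocytes and 3.99 to 4.34 in vehicle with astrocytes, against 3.58 to 3.74 in estradiol alone and 3.53 to 3.88 in vehicle alone.

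A list of 9 genes held to be off in the MDA-MB-231 line, such as luminal breast and globin genes, was read the same way. Whether the mouse astrocytes express any of them was not tested. Of 7 measured, 5 lay in deciles 1 to 4, and 3 rose, 0 fell and 4 did not pass (median 0.52). Of all genes 24.5% were called higher and 23.0% lower, and in deciles 1 to 4 the share called higher was 34.0% to 40.8%. Those called were the trefoil factor gene TFF1 at 1.46, the beta-globin gene HBB at 0.79 and the estrogen receptor gene ESR1 at 0.80. Genes typical of MDA-MB-231 had a median of −0.52, with 5 lower and 1 higher of 17, and housekeeping genes −0.43, with 2 lower of 9. In deciles 7 to 10 of signal lay 15 of the 17 MDA-MB-231 genes and all 9 housekeeping genes. The median difference of all genes in those deciles ran from −0.36 to −0.68. Of all genes there, 25.6% to 45.9% were called lower and 4.62% to 14.8% higher. The MDA-MB-231 genes without replicate 2 of both astrocyte groups had a median of −0.19 with 5 higher and 5 lower, housekeeping genes −0.21 with 0 higher and 1 lower, and luminal and globin genes 0.26 with 2 higher and 1 lower. Of all genes, 23.2% were higher and 21.6% lower in that setting. With the array SD as covariate the counts were 2 higher and 0 lower for microglia, 1 and 0 for neurons, 0 and 0 for oligodendrocytes, 0 and 0 for fibroblasts, 1 and 0 for endothelial cells, 1 and 0 for luminal and erythroid genes, 6 and 0 for MDA-MB-231 genes and 1 and 0 for housekeeping genes. In that fit 8.57% of all genes were higher and 5.82% lower. The part of other cells or of the range of signal in the markers' differences was not tested.

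Relatives of the markers gave mixed values over both treatments, with 16 higher and 3 lower of 36 measured, beside 24.5% of all genes higher and 23.0% lower. Without replicate 2 of both astrocyte groups 12 were higher and 4 lower, beside 23.2% and 21.6% of all genes. Of the 36, 16 lay in deciles 1 to 4 of signal, where 34.0% to 40.8% of all genes were called higher, and 11 in deciles 7 to 10. Among metallothionein genes, whose sequences are close enough for probe sets to share RNA, MT1F (0.49) and MT4 (0.43) rose and MT2A (−0.37) fell, while MT1E (−0.50) and MT1X (−0.22) were not called, so the value of MT3 is uncertain to that extent. Of the cystatin genes CST1 (1.17), CST2 (1.04) and CST7 (0.59) rose and CST4, CST5 and CST6 were not called. SLC1A7 (0.85) and SLC1A6 (0.49) rose, and SLC1A1 (0.13), SLC1A4 (−0.43) and SLC1A5 (−0.39) were not called. The proteoglycan genes related to BCAN rose, with NCAN at 0.85, VCAN at 0.90 and ACAN at 0.65. CPD, a carboxypeptidase gene related to CPE, fell by 2.30 on the log2 scale, and CPZ rose (0.68). The other relatives called were DES (0.80), PRPH (0.70), S100A4 (0.62), AQP1 (0.51) and ALDH1L2 (0.41), which rose, and VIM (−0.48), which fell.

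Likeness of profile was measured as the root mean square difference between log2 signals, each gene centred on its own mean over the 12 arrays. Among the markers GFAP was closest to BCAN (0.117) and MT3 (0.129), and SLC1A3 was farthest from BCAN (1.19). In the ranking over other genes, those with MIR, SNOR, LOC, LINC, KIAA, FLJ, MGC or open reading frame names were left out. Of the rest, GFAP was closest to PBX3-DT (0.0808), the potassium channel gene KCNJ9 (0.0889) and the glypican gene GPC3 (0.0946). CST3 was closest to the olfactory receptor gene OR6C4 (0.150), RUSF1 (0.151) and IRF2BP1 (0.162). All these profiles include the differences in array SD given above.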

How the data were processed

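Expression was measured on 12 single-colour Affymetrix arrays with biotin label. The authors deposited log2 signals. RMA and Partek are named in the submitters' processing notes; their role, order and versions are not given in the sources used here. Array medians ran from 4.35 to 4.77. Arrays have no read depth, so their number limits the precision. GEO's platform annotation gave 1 symbol to 19181 of 33297 probe sets, several to 2055 and none here to 12061.

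The probe set of highest mean per gene left 17958 genes, with no filter on low values. The test was limma 3.58.1, run in R 4.3.3 (lmFit on 4 group means over 12 arrays, contrasts.fit, eBayes), two-sided, with Benjamini-Hochberg adjustment across the genes of a comparison and a threshold of 0.05. An exact test of 3 arrays against 3 could not go below p = 0.1, so none was used within a treatment. That limit does not apply to the comparison over both treatments, where no exact test was run either. The script was tested on simulated data.

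Markers, lists and alternatives were chosen with earlier results of these data known. The lists are further and reactive astrocyte genes, markers of neurons, microglia, oligodendrocytes, endothelial and mural cells and fibroblasts, genes typical of MDA-MB-231, luminal and erythroid genes, housekeeping genes and paralogs. Named are all markers, the 3 genes nearest in profile to GFAP and to CST3 after the name filter given above, paralogs, and up to 4 genes of a list with the smallest p over both treatments. In the astrocyte groups, arrays of the same number deviated together from the group mean in all 3 pairs (r = 0.789, 0.756 and 0.214), a pairing taken from the values, although the estradiol array numbered 3 was closer to the vehicle array numbered 1 (r = 0.396) than to its own number, and blocking on it left the estradiol comparison with astrocytes at 0 genes.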

Additional observations from a re-analysis of the deposited data

How the results depend on the processing

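The alternatives changed how many genes passed far more than the direction of the markers. Over both treatments 9 markers were called. The count was 2 with the array SD as covariate, 5 among the 5 markers left when only genes above the median level were tested, and 7 to 9 with each array left out. All genes called there numbered 8528, against 2584 with the array SD, 14987 with array weights, 4118 above the median level and 4770 to 11339 with an array left out. Under estradiol 2 markers and 2366 genes were called. Markers numbered 0 with the array SD, with quantile normalization, with the compared groups only and without replicate 2 of both astrocyte groups, 1 with median centring, 8 with the replicate block, 10 with array weights and 0 to 8 with an array left out. Genes numbered 469 with the array SD, 529 with quantile normalization, 0 with the compared groups only, 6691 with the replicate block, 14777 with array weights and 3 to 9222 with an array left out. Under vehicle 0 markers and 10 genes were called. Markers numbered 1 with the array SD, 4 with the replicate block, 9 with array weights and 0 to 7 with an array left out. Genes numbered 1166 with the array SD, 1594 with the compared groups only, 41 with every probe set, 5 above the median level, 4 with median centring, 1004 without replicate 2 of both astrocyte groups, 2583 with the replicate block, 12445 with array weights and 2 to 6107 with an array left out. The alone groups shared the pairing only in part. Arrays of the same number, replicates 1 to 3, had r = 0.538, 0.485 and −0.016 between the estradiol groups with and without astrocytes. Between the vehicle groups r was 0.582, −0.436 and 0.065. The block is therefore no test of pairing across all 4 groups. For estradiol with astrocytes 1 gene was called with the array SD and 1197 with array weights, for estradiol alone 8 and for the interaction 648 with array weights, and no marker. Signs turned for AQP4 over both treatments (−0.44 with the array SD, −0.27 with quantile normalization, −0.085 with median centring, −0.12 without replicate 2 of both astrocyte groups, and from −0.071 to 0.21 with an array left out) and under estradiol (−0.28 and −0.071 with the array SD and quantile normalization). Under vehicle they turned for SLC1A2 (−0.13 and −0.073 with the same settings) and ALDH1L1 (−0.19 with the array SD). Median centring moved the median of all genes by −0.16 over both treatments. The causes were not tested. The replicate block within the astrocyte groups, and the counts of lists under other settings, were added after seeing the data. No outlier test was run, since groups hold 3 arrays, and no interaction of a marker passed. Replicate 2 of both astrocyte groups was left out in a setting for its narrow range of signal, which was read from these data.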
